A study of Rattus norvegicus with 9 samples.

Results

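The genes described here encode the kinases that carry cyclic AMP, lipid, calcium and growth factor signals in the cytoplasm, together with their subunits, inhibitors and scaffolds. They were chosen by name, as every gene whose symbol in the array annotation starts with Prka, Prkc, Prkg, Pki, Mapk, Map2k, Map3k, Map4k or Camk and whose probe set names no other gene. That gave 53 of the 4736 genes measured on the Rat Genome U34A array, with 98 of its 8740 probe sets. Each gene was read at its brightest probe set, by the mean over the 9 arrays, and the 26 genes with several probe sets were compared across them. Not every member is a kinase of the family its symbol recalls. Prkaa1, Prkaa2, Prkab1 and Prkag1 are subunits of AMPK, the energy-sensing kinase, and not of PKA. Prkar1a, Prkar1b, Prkar2a and Prkar2b are regulatory subunits of PKA, while Pkia and Pkib are inhibitors of its catalytic subunits. Camk2n1 and Camk2n2 inhibit CaMKII, Camkv is a calmodulin-binding protein with an inactive kinase domain, and Mapk8ip1 and Mapk8ip2 are scaffolds of the JNK pathway.

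RNA came from neurons of the superior cervical ganglion of Holtzman rat embryos at embryonic day 21, grown in serum-free medium and exposed to Ara-C for 48 hr to deplete dividing non-neuronal cells. BMP24h cultures received 50 ng/ml BMP-7 for 24 hr, BMP6h cultures received 50 ng/ml for 6 hr, and control cultures were kept in the same medium without it for 24 hr. The study states that BMP-7 was added on day 5 in culture and that RNA of all conditions was isolated together on day 6. Each condition had 3 arrays from independent dissections, and each array holds RNA pooled from many neurons. Batch 1 held replicate 1 of every condition (10 µg of cRNA on each array), and the 6 other arrays formed batch 2 (5 µg each). All values are log2 expression values, so that a difference of 1 is a doubling. In pooled RNA, fewer cells of a type and less RNA per cell cannot be told apart.

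These kinases sit between receptors at the cell surface and the transcription factors and cytoskeletal proteins they phosphorylate. PKA is freed from its regulatory subunits by cyclic AMP, PKC is recruited by diacylglycerol and, in its classical forms, calcium, and CaM kinases are switched on by calcium-bound calmodulin. MAP kinases lie at the end of relays in which a MAP3K phosphorylates a MAP2K and the MAP2K phosphorylates the MAP kinase. BMP receptors signal mainly through Smad proteins, but can also reach the p38 and JNK arms of the MAP kinase relays through TAK1. Activity of kinases is set by phosphorylation and second messengers, which an array of transcripts does not measure.

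The study asked which transcripts respond as BMP-7 starts dendritic growth. No member changed at an adjusted p under 0.05 in any of the 3 comparisons (limma, adjusted over all 8740 probe sets). The background for that count was 0.211% of the 4736 genes for BMP24h against control, 0.0422% for BMP6h against control and 0.0% for BMP24h against BMP6h. The lowest adjusted p-values of any member were 0.362 for BMP24h against control (limma, Camk2g), 0.887 for BMP6h against control and 0.767 for BMP24h against BMP6h. The values below are therefore given as measured differences and not as changes. The comparisons share the same control or BMP-7 arrays and are not independent of one another.

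The study's Methods used looser thresholds, asking for a p under 0.05 before any adjustment and a difference of 1.2-fold or more. In BMP24h cultures 3 members (5.66%) were below control by these thresholds, Camk2g, Camk2d and Pkia, against a background of 2.05% of all genes, and 0 were above control, against a background of 1.77%. In BMP6h cultures 1 member (1.89%), Map3k1, was above control, against 0.908% of all genes, and 0 were below, against 0.887%. Between the BMP-7 times, 4 members (7.55%) were lower in BMP24h than in BMP6h cultures, Map3k1, Camk2g, Camk2d and Mapk14, against 1.63% of all genes. Prkg2 alone (1.89% of members) was higher in BMP24h than in BMP6h cultures, against 1.58% of all genes. With 53 members, each of these shares rests on at most 4 genes.

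**Figure D1:**
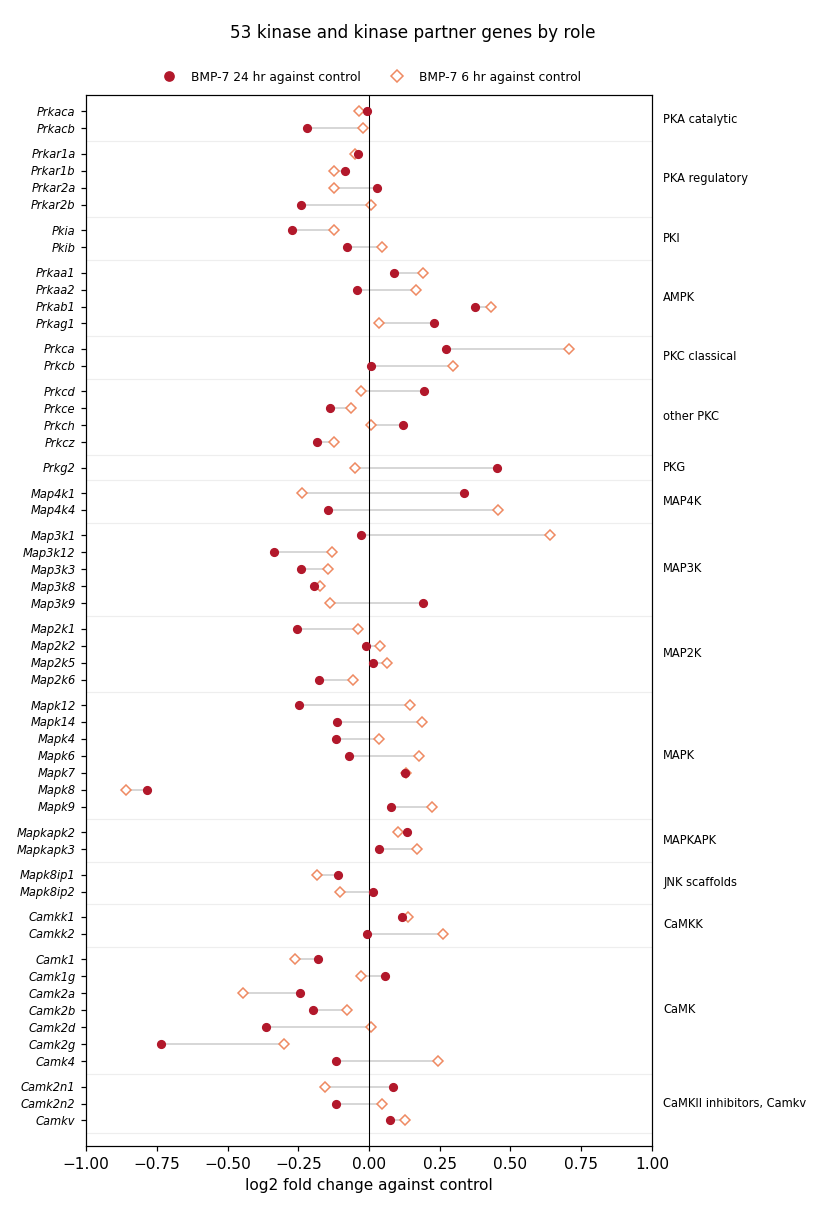
Log2 fold change of each of the 53 genes at its brightest probe set in BMP24h (filled circles) and BMP6h cultures (open diamonds), both against the same 3 control arrays, grouped by role. Most points lie within 0.2 of 0 (37 genes in BMP24h and 40 in BMP6h cultures), and Mapk8, Camk2g, Map3k1 and Prkca stand farthest out.

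Most of the members differed little between conditions. In BMP24h cultures 21 members were above and 32 below control, their median fold change was -0.04 on the log2 scale, and 37 of 53 lay within 0.2 of 0. Over all 4736 genes, 52.2% were above control and the median was 0.01. In BMP6h cultures 27 members were above and 26 below control with a median of 0.01, and 40 lay within 0.2 of 0. Of all genes 42.7% were above control at 6 hr, with a median of -0.03. Between BMP24h and BMP6h cultures 18 members were higher and 35 lower, with a median of -0.07, against 56.7% higher and a median of 0.03 over all genes. The median standard error of a member's fold change was 0.16, so differences within 0.2 are of the size of the error. BMP6h replicate 2 stood apart from the other arrays, and without it the sign of the BMP6h difference from control turned in 19 of 53 members (32 above and 21 below control), 10 of which had differed by more than 0.1. Between BMP24h and BMP6h cultures the sign turned in 12 members without that array, and 18 were again higher and 35 lower.

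The sequences upstream of the genes were read for sites tied to these pathways. Those of Map3k1, Camk2d and Camk2g are shown as examples of genes past the thresholds of the Methods. They were picked with their values in view, and the probe sets of Camk2d disagreed, as given below. Each run is the RefSeq sequence (GRCr8) of 250 bases before and 50 after the start of the gene, on the gene's own strand, with capitals marking GGCGCC, a GC-rich site that BMP-activated Smads can bind. The window of Map3k1 (chr2:45147969-45148268, minus strand) holds no such site. The window of Camk2d (chr2:217698301-217698600, plus strand) holds one at its first base, and that of Camk2g (chr15:3553106-3553405, plus strand) one from base 35.
Map3k1: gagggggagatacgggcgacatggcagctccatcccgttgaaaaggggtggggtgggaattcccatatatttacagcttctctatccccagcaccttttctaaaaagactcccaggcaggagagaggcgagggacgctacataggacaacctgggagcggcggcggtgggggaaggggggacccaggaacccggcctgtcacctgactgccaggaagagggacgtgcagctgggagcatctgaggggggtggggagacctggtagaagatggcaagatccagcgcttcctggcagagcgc
Camk2d: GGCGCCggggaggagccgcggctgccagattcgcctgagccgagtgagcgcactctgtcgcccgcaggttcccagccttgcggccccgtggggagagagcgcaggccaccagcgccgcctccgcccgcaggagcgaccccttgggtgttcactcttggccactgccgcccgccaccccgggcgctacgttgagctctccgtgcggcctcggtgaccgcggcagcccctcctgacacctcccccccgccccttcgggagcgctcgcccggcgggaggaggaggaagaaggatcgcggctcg
Camk2g: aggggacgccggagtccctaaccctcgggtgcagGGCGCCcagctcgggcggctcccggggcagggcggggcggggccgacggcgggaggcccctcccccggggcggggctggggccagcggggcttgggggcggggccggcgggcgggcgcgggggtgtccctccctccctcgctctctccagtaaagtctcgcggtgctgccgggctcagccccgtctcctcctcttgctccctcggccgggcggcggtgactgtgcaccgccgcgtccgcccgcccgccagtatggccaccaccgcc
Of the 53 members 43 had a window of this kind, and GGCGCC was found in 17 of them (39.5%), against 11.8% of 27457 windows of all genes and 18.9% of the 3871 windows of genes on the array. The 17 genes included CaMKII genes (Camk2b, Camk2d, Camk2g), PKC genes (Prkca, Prkcd, Prkce), Prkaca and Mapk14, whose values had no common direction. The cyclic AMP response element TGACGTCA was found in 0 of the 43 windows, against 1.91% of all windows and 2.43% for array genes. The AP-1 site TGACTCA was found in 0, against 4.53% and 4.08%. At such shares few of 43 windows would hold a site, so 0 is close to these backgrounds. Both strands were searched, and base composition was not matched between members and other genes.

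Map3k1, the kinase MEKK1 at the head of JNK and ERK relays, had the highest signal in BMP6h cultures. Its probe set U48596_g_at read 7.69, 7.85 and 7.99 in BMP24h, 8.77, 8.27 and 8.49 in BMP6h and 7.76, 7.96 and 7.89 in control cultures. All 3 BMP6h arrays lay above all arrays of the other conditions, while BMP24h and control overlapped. The mean was 7.84 ± 0.15 in BMP24h, 8.51 ± 0.25 in BMP6h and 7.87 ± 0.10 in control cultures (SD, n = 3 each). The log2 fold change was 0.64 ± 0.16 (SE) for BMP6h against control (limma, unadjusted p = 0.00468, adjusted p = 0.887) and -0.67 ± 0.16 for BMP24h against BMP6h (limma, unadjusted p = 0.00373, adjusted p = 0.767). For BMP24h against control it was -0.03. The 3 probe sets of Map3k1 read alike, with 0.64, 0.60 and 0.69 for BMP6h against control and -0.67, -0.58 and -0.71 for BMP24h against BMP6h. Within batch 2 alone the differences were smaller, at 0.46 for BMP6h against control (limma, unadjusted p = 0.0579) and -0.46 for BMP24h against BMP6h (limma, unadjusted p = 0.0569), and batch 1 holds 1 array of each condition.

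The other members at the top of the MAP kinase relays did not share this pattern. Among MAP3K genes, Map3k12 (DLK, a kinase of axonal stress signalling) had -0.34 for BMP24h and -0.13 for BMP6h against control, and Map3k9 had 0.19 and -0.14. Map3k3 and Map3k8 were also below control in both, by 0.24 and 0.20 on the log2 scale in BMP24h and by 0.14 and 0.17 in BMP6h cultures. Map4k1, a MAP4K upstream of JNK, read 6.23, 6.71 and 6.33 in BMP24h, 6.09, 5.19 and 6.27 in BMP6h and 6.04, 6.10 and 6.12 in control cultures at its brightest probe set. BMP24h arrays lay above the control arrays and overlapped the BMP6h ones. Its fold change for BMP24h against BMP6h was 0.57 (limma, unadjusted p = 0.0774), and 0.21 without BMP6h replicate 2 (limma, unadjusted p = 0.178). The dimmer of its 2 probe sets, which the study's tables list, read 4.77, 5.06 and 4.99 in BMP24h, 4.52, 4.09 and 4.49 in BMP6h and 4.64, 4.90 and 4.34 in control cultures. All its BMP24h arrays lay above its BMP6h arrays (0.58, limma, unadjusted p = 0.0181, adjusted p = 0.939). Map4k4 had 0.46 for BMP6h against control, resting on replicate 2 at 8.08 against 6.95 and 6.53 in the other BMP6h arrays, and -0.03 without that array.

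Among the MAP2K genes, which pass the signal to the MAP kinases, differences were small. Map2k1 (MEK1 of the ERK relay) had -0.25 for BMP24h and -0.04 for BMP6h against control. Its 3 probe sets were all below control in BMP24h cultures (-0.65 to -0.24) but spread from -0.74 to 0.04 in BMP6h cultures. Map2k2 (MEK2) had -0.01 for BMP24h and 0.04 for BMP6h against control, with BMP24h arrays at 10.59, 10.58 and 10.57 and control arrays at 10.60, 10.58 and 10.60. Map2k5 (MEK5) had 0.02 and 0.06, and Map2k6 (a p38 activator) -0.18 and -0.06.

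Among the 7 MAP kinases, 2 were above control in BMP24h and 6 in BMP6h cultures, and 6 were lower in BMP24h than in BMP6h cultures. Without BMP6h replicate 2, 4 of the 7 were above control in BMP6h cultures, with Mapk12 at -0.07 and Mapk4 at -0.25 against control, and 5 were lower in BMP24h than in BMP6h cultures. Mapk14, p38α, read 9.03, 8.89 and 8.97 in BMP24h, 9.29, 9.22 and 9.27 in BMP6h and 8.98, 9.03 and 9.21 in control cultures. All BMP6h arrays lay above the arrays of both other conditions, by a narrow margin over control replicate 3. The mean was 8.96 ± 0.07 in BMP24h, 9.26 ± 0.04 in BMP6h and 9.07 ± 0.12 in control cultures (SD, n = 3 each). The fold change was -0.30 ± 0.12 (SE) for BMP24h against BMP6h (limma, unadjusted p = 0.0344, adjusted p = 0.939), 0.19 for BMP6h against control and -0.11 for BMP24h against control. Its 4 brightest probe sets had between -0.30 and -0.22 for BMP24h against BMP6h, and the 2 dimmest had -0.02 and 0.01.

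The other MAP kinases varied by more between arrays or by less between conditions. Mapk8, JNK1, had the lowest fold changes of all members, -0.79 for BMP24h and -0.86 for BMP6h against control, with standard errors of 0.38. It read 5.76, 5.21 and 5.82 in BMP24h, 5.87, 4.93 and 5.77 in BMP6h and 5.87, 6.21 and 7.06 in control cultures. Control replicate 3 stood highest and BMP6h replicate 2 lowest, and control replicate 1 read like most of the BMP-7 arrays. Without BMP6h replicate 2 the fold change for BMP6h against control was -0.53. Mapk9 (JNK2) had 0.08 for BMP24h and 0.22 for BMP6h against control, Mapk12 (p38γ) -0.25 and 0.14, and Mapk6 (ERK3) -0.07 and 0.18. Mapk7, the ERK5 kinase, read 9.49, 9.49 and 9.55 in BMP24h, 9.50, 9.54 and 9.50 in BMP6h and 9.42, 9.40 and 9.33 in control cultures. Its BMP-7 arrays all lay above its control arrays, by 0.13 on average at both times, and its second probe set had -0.0006 for BMP24h and 0.13 for BMP6h against control. The p38-activated kinases Mapkapk2 and Mapkapk3 had 0.13 and 0.04 for BMP24h and 0.10 and 0.17 for BMP6h against control. The JNK scaffolds Mapk8ip1 and Mapk8ip2 had -0.11 and 0.01 for BMP24h and -0.18 and -0.10 for BMP6h against control.

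All 4 CaMKII genes, whose products form the multimeric calcium-activated kinase of synapses, were below control in BMP24h cultures at their brightest probe sets. Camk2g, the γ subunit, differed most. It read 7.74, 7.88 and 7.66 in BMP24h, 8.23, 7.86 and 8.50 in BMP6h and 8.48, 8.55 and 8.46 in control cultures (probe set S71570_s_at). All BMP24h arrays lay below all control arrays, and BMP6h arrays spread over both. The mean was 7.76 ± 0.11 in BMP24h, 8.20 ± 0.32 in BMP6h and 8.50 ± 0.05 in control cultures (SD, n = 3 each). The fold change was -0.74 ± 0.17 (SE) for BMP24h against control (limma, unadjusted p = 0.00311, adjusted p = 0.362), -0.30 for BMP6h against control and -0.43 for BMP24h against BMP6h (limma, unadjusted p = 0.0377). The difference between the BMP-7 times passed the thresholds in 9 of 20 alternatives, and was -0.27 without BMP6h replicate 3 (limma, unadjusted p = 0.14) and -0.26 as the mean over probe sets (limma, unadjusted p = 0.099). The other 2 probe sets of Camk2g were also lower in BMP24h than in control cultures, with fold changes of -0.42 and -0.37. Within batch 2 alone the difference from control was -0.73 (limma, unadjusted p = 0.0339).

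Camk2d, the δ subunit, was lower in BMP24h cultures at its brightest probe set, but its probe sets did not run the same way. It read 9.10, 8.78 and 9.03 in BMP24h, 9.26, 9.43 and 9.33 in BMP6h and 9.28, 9.39 and 9.33 in control cultures (probe set rc_AA894330_s_at). BMP24h arrays lay below all others, and BMP6h and control arrays overlapped. The fold change was -0.36 ± 0.13 (SE) for BMP24h against control (limma, unadjusted p = 0.0229, adjusted p = 1) and -0.37 ± 0.13 for BMP24h against BMP6h (limma, unadjusted p = 0.0215, adjusted p = 0.939), and 0.01 for BMP6h against control. The 6 probe sets of Camk2d disagreed, with 3 below and 3 above control in BMP24h cultures, from -0.60 to 0.16, and from -0.37 to 0.37 for BMP24h against BMP6h. The 5 other probe sets were much dimmer, with means between 3.56 and 5.96, and averaging all 6 gave -0.19 for BMP24h against control (limma, unadjusted p = 0.169) and -0.03 for BMP24h against BMP6h (limma, unadjusted p = 0.823). Within batch 2 alone the brightest probe set had -0.45 for BMP24h against control (limma, unadjusted p = 0.0617).

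The neuronal α and β subunits were lower by less. Camk2b had -0.20 for BMP24h and -0.08 for BMP6h against control, with arrays at 9.60, 9.66 and 9.73 in BMP24h, 9.84, 9.66 and 9.84 in BMP6h and 9.87, 9.81 and 9.91 in control cultures. Camk2a had -0.24 for BMP24h and -0.44 for BMP6h against control, with control replicate 3 at 7.08 above all other arrays. Without BMP6h replicate 2 (5.79) the BMP6h difference of Camk2a was -0.21. Over the 13 CaMKII probe sets, 10 were below and 3 above control in BMP24h cultures, and 11 were below and 2 above in BMP6h cultures. All 3 probe sets above control in BMP24h cultures were of Camk2d.

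**Figure D2:**
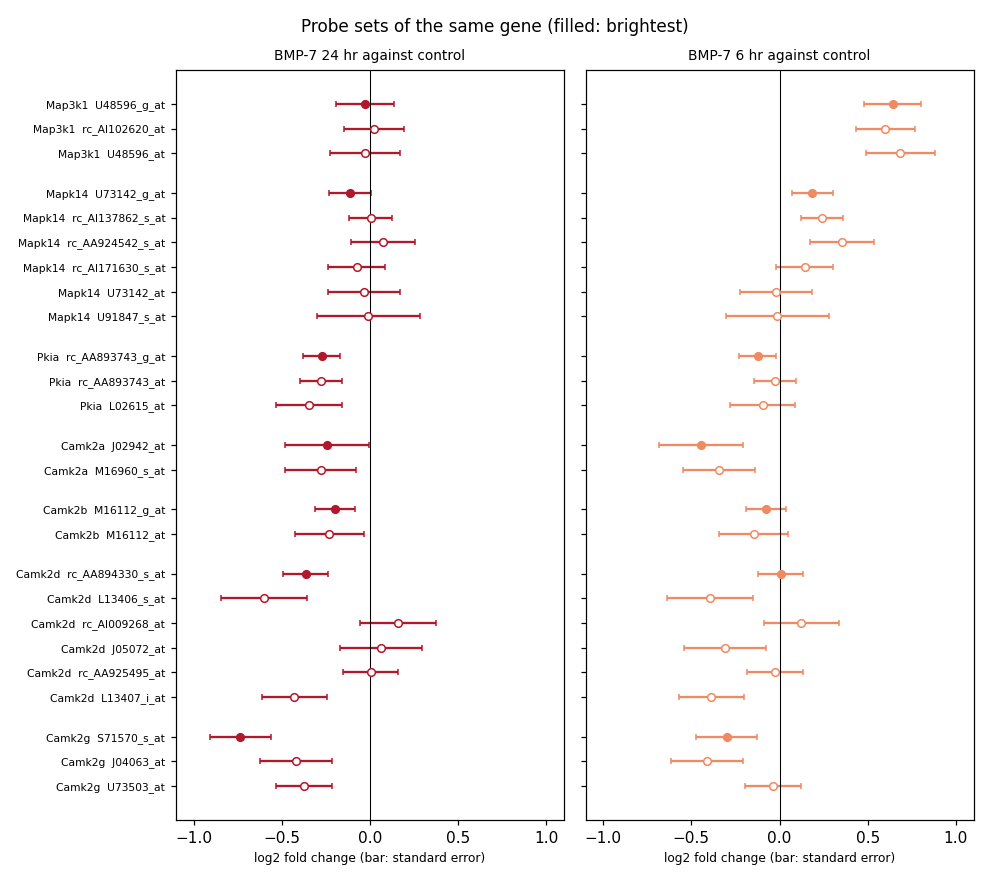
Log2 fold change of each probe set of Map3k1, Mapk14, Pkia and the CaMKII genes for BMP24h (left) and BMP6h cultures (right) against control, with bars of 1 standard error and the brightest probe set of each gene filled. The 3 Map3k1 probe sets stand together at 0.60 to 0.69 in BMP6h cultures, and the 6 Camk2d probe sets spread from -0.60 to 0.16 in BMP24h cultures.

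None of the remaining calcium and calmodulin genes passed the thresholds of the Methods. Camk1 was below control in both, at -0.18 for BMP24h and -0.26 for BMP6h cultures, and its BMP6h arrays (7.83, 7.60 and 7.72) lay below its control arrays (7.92, 7.95 and 8.07). Camk1g had 0.06 and -0.03, and Camk4, the nuclear CaM kinase that phosphorylates CREB, had -0.12 and 0.25. The dimmer Camk4 probe set had -0.31 and 0.53, and -0.84 for BMP24h against BMP6h, with BMP6h replicate 2 at 6.82 and the other BMP6h arrays at 5.38 and 5.21. Of the CaM kinase kinases, which activate Camk1, Camk4 and AMPK, Camkk2 read 6.02, 5.99 and 6.09 in BMP6h and 5.57, 5.87 and 5.86 in control cultures, a difference of 0.26. Camkk2 in BMP24h cultures (5.97, 5.28 and 6.04) spread over both, and Camkk1 had 0.11 for BMP24h and 0.14 for BMP6h against control. The CaMKII inhibitors Camk2n1 and Camk2n2 had 0.08 and -0.12 for BMP24h and -0.16 and 0.05 for BMP6h against control, and Camkv had 0.07 and 0.13.

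In the PKA system only Pkia passed the thresholds of the Methods. Pkia, the inhibitor peptide that binds free catalytic subunits, read 9.67, 9.58 and 9.67 in BMP24h, 9.81, 9.76 and 9.80 in BMP6h and 9.86, 9.97 and 9.91 in control cultures. No 2 conditions overlapped, with BMP24h lowest, BMP6h between and control highest. The mean was 9.64 ± 0.05 in BMP24h, 9.79 ± 0.03 in BMP6h and 9.91 ± 0.06 in control cultures (SD, n = 3 each). The fold change was -0.27 ± 0.10 (SE) for BMP24h against control (limma, unadjusted p = 0.0327, adjusted p = 1) and -0.12 for BMP6h against control, and the 3 probe sets of Pkia had -0.27, -0.28 and -0.35 for BMP24h against control. Within batch 2 alone the difference of BMP24h from control was -0.32 (limma, unadjusted p = 0.133). Pkib had -0.08 for BMP24h and 0.05 for BMP6h against control.

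**Figure D3:**
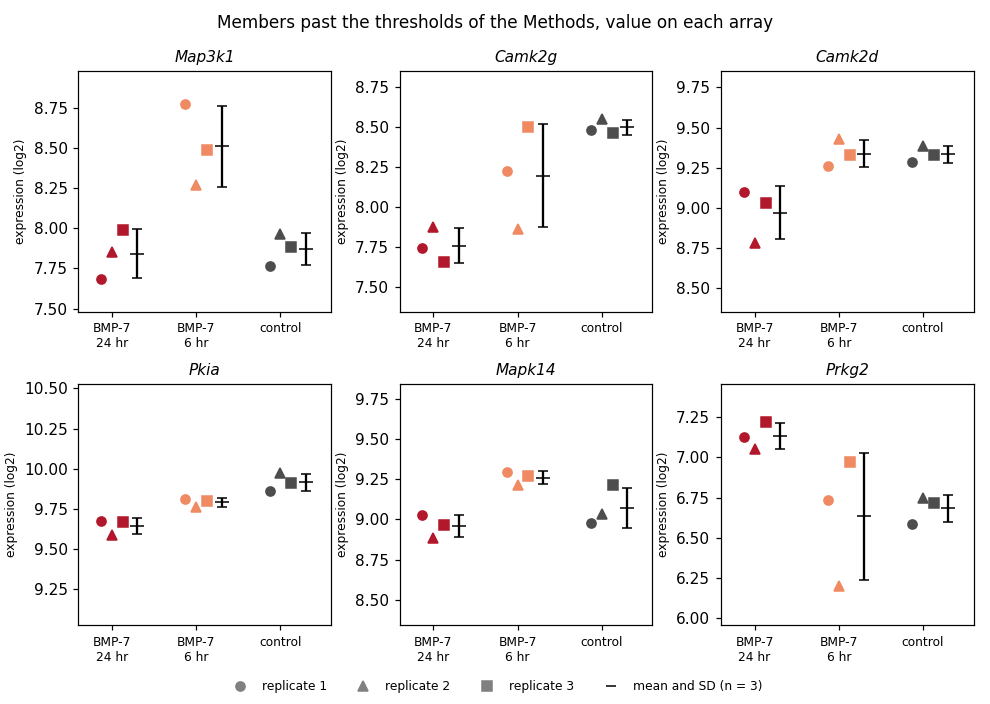
Log2 expression on each array for the 6 genes past the thresholds of the Methods in at least 1 comparison (BMP24h, BMP6h and control from left to right), with the mean and SD of the 3 arrays. BMP6h arrays of Map3k1 stand apart between 8.27 and 8.77, BMP24h arrays of Camk2g lie between 7.66 and 7.88 below all control arrays, and Prkg2 spreads widely in BMP6h cultures.

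The catalytic subunit Prkaca had -0.01 for BMP24h and -0.04 for BMP6h against control, with 9.47, 9.36 and 9.59 in BMP24h, 9.49, 9.23 and 9.60 in BMP6h and 9.43, 9.39 and 9.60 in control cultures. Its 3 conditions overlapped. Prkacb, the other catalytic subunit, read 10.34, 10.15 and 10.43 in BMP24h, 10.45, 10.59 and 10.46 in BMP6h and 10.54, 10.54 and 10.49 in control cultures. Its BMP24h arrays lay below the control arrays, by 0.22 on average, and its dimmer probe set had -0.20. The regulatory subunit Prkar2b read 6.33, 6.35 and 6.32 in BMP24h, 6.62, 6.81 and 6.31 in BMP6h and 6.54, 6.52 and 6.67 in control cultures, a difference of -0.24 for BMP24h against control. Prkar1b, a regulatory subunit of neurons, read 12.44, 12.42 and 12.42 in BMP24h, 12.37, 12.40 and 12.40 in BMP6h and 12.52, 12.46 and 12.55 in control cultures. Both BMP-7 conditions lay below control, by 0.09 on average in BMP24h and by 0.12 in BMP6h cultures, differences of under 0.2. Prkar1a had -0.04 for BMP24h and -0.05 for BMP6h against control, and Prkar2a had 0.03 and -0.12.

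Prkg2, the membrane-bound kinase activated by cyclic GMP, was the only member of the PKG family measured and had the highest fold change of any member for BMP24h against control. It read 7.13, 7.06 and 7.22 in BMP24h, 6.74, 6.20 and 6.97 in BMP6h and 6.59, 6.75 and 6.71 in control cultures. BMP24h arrays lay above all others, and BMP6h and control arrays overlapped. The mean was 7.13 ± 0.08 in BMP24h, 6.63 ± 0.40 in BMP6h and 6.68 ± 0.09 in control cultures (SD, n = 3 each). The fold change was 0.45 ± 0.20 (SE) for BMP24h against control (limma, unadjusted p = 0.0543) and 0.50 ± 0.20 for BMP24h against BMP6h (limma, unadjusted p = 0.0373, adjusted p = 0.939). Without BMP6h replicate 2, the lowest array, the difference of BMP24h from BMP6h was 0.26 (limma, unadjusted p = 0.0576).

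Among PKC genes the largest difference rested on a single array. Prkca, the classical α form, read 6.01, 6.09 and 5.75 in BMP24h, 5.98, 7.54 and 5.62 in BMP6h and 6.01, 5.70 and 5.32 in control cultures. Its fold change for BMP6h against control was 0.71 ± 0.47 (SE), with BMP6h replicate 2 alone above all other arrays, and 0.07 without it. Prkcb, the classical β form, had 0.01 for BMP24h and 0.30 for BMP6h against control, but its 3 probe sets spread from -0.03 to 0.51 in BMP6h cultures. Prkcd, a form that needs diacylglycerol but not calcium, read 8.23, 8.23 and 8.60 in BMP24h, 8.25, 7.90 and 8.23 in BMP6h and 8.15, 8.20 and 8.12 in control cultures. Its BMP24h arrays lay above the control arrays, by 0.20 on average, and by 0.44 at its second probe set. Prkce had -0.14 for BMP24h and -0.07 for BMP6h against control, with all 4 probe sets below control in both. Prkch had 0.12 and 0.01, and Prkcz, an atypical form that needs neither activator, had -0.18 and -0.12.

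Of the 4 AMPK subunits, 4 were above control in BMP6h and 3 in BMP24h cultures, but without BMP6h replicate 2 only 3 were above control at 6 hr, with Prkaa1 at -0.0028, Prkaa2 at 0.05 and Prkab1 at 0.28. Prkab1 had the highest fold changes, 0.37 for BMP24h and 0.43 for BMP6h against control, but control replicate 3 at 5.97 lay below 7.17 and 7.29 in the other control arrays. Prkag1, the γ subunit that binds AMP, read 8.85, 8.79 and 8.95 in BMP24h, 8.60, 8.56 and 8.84 in BMP6h and 8.72, 8.66 and 8.52 in control cultures. Its BMP24h arrays lay above the control arrays, by 0.23 on average. The catalytic subunits Prkaa1 and Prkaa2 had 0.09 and -0.04 for BMP24h and 0.19 and 0.17 for BMP6h against control.

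Counting arrays rather than p-values, 14 members (26.4%) had BMP24h arrays that did not overlap the control arrays, against 13.6% of all genes. Camk2b, Camk2d, Camk2g, Mapk8, Pkia, Prkacb, Prkar1b, Prkar2b and Prkce were the 9 below control, and Map4k1, Mapk7, Prkag1, Prkcd and Prkg2 the 5 above. In BMP6h cultures 9 members (17.0%) did not overlap control, against 10.5% of all genes, with Camkk2, Map3k1, Mapk14, Mapk6 and Mapk7 above and Camk1, Mapk8ip2, Pkia and Prkar1b below. Between BMP24h and BMP6h cultures 9 members (17.0%) did not overlap, against 10.4% of all genes. Prkar1b and Prkg2 were higher in BMP24h cultures, and Camk2d, Camk2n2, Map3k1, Mapk12, Mapk14, Pkia and Prkacb were lower. Several of these separations were smaller than 0.2 on the log2 scale, as for Prkar1b and Mapk7.

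Where a gene had several probe sets, they mostly ran the same way. Of the 26 such genes, all probe sets had the same sign in 17 for BMP24h against control, in 17 for BMP6h against control and in 18 for BMP24h against BMP6h. Probe sets of a gene disagreed, by at least 0.5 on the log2 scale or by opposite signs where 1 passed the thresholds, for Camk2d in all 3 comparisons. They also disagreed for Map2k1, Prkacb and Prkcb in BMP6h against control, and for Mapk14, Prkacb and Prkch in BMP24h against BMP6h. The brighter Prkacb probe set had -0.02 and the dimmer 0.63 for BMP6h against control.

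The transcripts that feed or answer these kinases were read from lists of partners, and none of them changed at an adjusted p under 0.05 at its brightest probe set. Of 33 listed MAP kinase phosphatases and targets 21 were measured. By the thresholds of the Methods, which use unadjusted p-values, 4 were above and 2 below control in BMP24h cultures. Of all genes 1.77% were above and 2.05% below control by the same thresholds. The partner lists were chosen with earlier results of these data known. Counts from them, here and in the lists below, are therefore no test of the partners. Egr1, an immediate early gene downstream of ERK, read 10.67, 9.95 and 11.14 in BMP24h, 8.66, 8.20 and 9.31 in BMP6h and 9.33, 9.09 and 9.64 in control cultures. Its BMP24h arrays lay above all others, with 1.24 for BMP24h against control and 1.87 for BMP24h against BMP6h. Ptpn5, the neuronal phosphatase STEP that inactivates ERK and p38, had 0.94 for BMP24h against control, and Ptprr, a related phosphatase, -0.85. Dusp1, a MAP kinase phosphatase induced early, had 0.39 for BMP24h and 0.78 for BMP6h against control, and the AP-1 gene Junb had 0.37 and 0.57. The other Dusp1 probe sets were also above control, at 0.79 and 0.83 for BMP24h and 1.32 and 1.14 for BMP6h cultures. The last of these passed the adjusted test (S81478_s_at, limma, adjusted p = 0.0483). The study's supplementary list of genes downregulated by BMP-7 includes this probe set, the opposite direction to the deposited values read here. Jun had -0.52 for BMP6h against control, and Jund -0.45 for BMP24h against control. The 16 of 25 Ras and Raf inputs that were measured had 8 above and 8 below control in BMP24h cultures, 0 of them past the thresholds of the Methods.

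Among partners of PKC, 20 of 26 were measured. Plcb1, a phospholipase that makes diacylglycerol, read 7.75, 7.53 and 7.98 in BMP24h, 8.70, 8.76 and 8.68 in BMP6h and 8.73, 8.70 and 8.70 in control cultures. Plcb3, its relative, read 8.57, 8.70 and 8.08 in BMP24h, 7.81, 7.61 and 7.85 in BMP6h and 7.31, 7.48 and 7.65 in control cultures. The BMP24h arrays of Plcb1 lay below and those of Plcb3 above all other arrays, with -0.96 (limma, adjusted p = 0.0604) and 0.97 (limma, adjusted p = 0.215) for BMP24h against control. Of 36 PKA partners 26 were measured, and only Pde4b, a phosphodiesterase that breaks down cyclic AMP, passed the thresholds of the Methods in BMP24h against control, at -0.70. Of 23 CaMK partners 17 were measured. The synaptic vesicle protein Syn2 had 0.57 and the calcium buffer Calb1 -0.80 for BMP24h against control, and no other measured CaMK partner passed those thresholds there.

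Cell type markers and array quality were read beside these values. The noradrenergic enzymes Th and Dbh, which define sympathetic neurons, were measured well above the lowest values in all conditions, with means of 13.41, 13.42 and 13.49 for Th and 12.18, 12.10 and 11.94 for Dbh in BMP24h, BMP6h and control cultures. The glial factor Sox10 had means of 4.83, 4.85 and 4.57 and the matrix gene Col1a1 means of 10.38, 10.61 and 10.30 in the same order. Both were above control in BMP24h cultures, where most markers of their lists were below it. The mean over 10 sympathetic neuron markers was 11.23 to 11.51 on BMP24h, 11.47 to 11.48 on BMP6h and 11.39 to 11.43 on control arrays. The mean over 10 fibroblast and matrix markers was 10.21 to 10.34 on BMP24h, 10.47 to 10.58 on BMP6h and 10.37 to 10.65 on control arrays, so BMP24h arrays were the lowest, and 7 of the 10 were below control. The mean over 8 glial markers overlapped between conditions (7.23 to 7.51, 7.29 to 7.43 and 7.35 to 7.42 on BMP24h, BMP6h and control arrays). In BMP24h cultures 5 of these glial markers were below control and 3 above. Of the sympathetic neuron markers 6 were below and 4 above. For macrophage and blood markers these counts were 5 and 2, and for endothelial and mural markers 4 and 2. Each list thus had more markers below control than above it. The mean over 7 macrophage and blood markers was 6.71 to 6.83 on BMP24h, 6.82 to 6.92 on BMP6h and 6.76 to 7.00 on control arrays, and over 6 endothelial and mural markers 6.83 to 6.90, 6.67 to 6.94 and 6.94 to 7.29 on the same arrays. BMP6h replicate 2 stood apart, with 9.99% of all probe sets more than 1 from the mean of the other BMP6h arrays, against 4.21% or less for any other array in its own condition. Of the members, 15 lay more than 0.5 from the mean of the other BMP6h arrays in replicate 2. Control replicate 3 had 10 such members and the other arrays between 0 and 8. The part of these marker and array differences in the members' values was not tested.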

How the data were processed

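Transcripts of sympathetic neurons in culture were measured on 9 Rat Genome U34A arrays, 3 per condition. The authors summarised each probe set by RMA in Partek Genomics Suite, subtracted the batch difference and deposited the result on the log2 scale (2.69 to 14.4). The version of RMA is not given in the sources used here. No probe set had batch means more than 6.67e-05 apart, and 0 pairs of arrays were identical. Arrays give no depth of reading, so precision is limited by their number.

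Control probe sets (59 of 8799) were dropped. By the platform annotation, 7006 of the other 8740 carry 1 gene symbol, 308 several and 1426 none here. The symbols of all 53 members are current in RefSeq (GRCr8). All 9 arrays entered 1 linear model (limma 3.58.1, R 4.3.3) holding terms for condition and for batch, which left 5 residual degrees of freedom. Benjamini-Hochberg adjustment ran over all 8740 probe sets, and an adjusted p under 0.05 was called. From the same model, members meeting the Methods' own limits (p under 0.05 unadjusted, 1.2-fold) were counted too. Removing the batch difference before deposit means that the batch term fits values already centred. The fit was tested on simulated data.

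Values on every array were given for members past either threshold in any comparison or listed in the study's supplementary tables, and fold changes for the members with the highest and lowest values of each role. Members whose arrays are given outside this rule, among them Mapk8, Mapk7, Prkca, Prkcd, Prkag1, Prkaca, Prkacb, Prkar1b, Prkar2b, Camk2b and Camkk2, and the partners given by array, were picked with their values in view. The members, partner lists and marker lists were chosen with earlier results of these data known. Fold changes and p-values of the authors' own comparisons were not used. Alternatives were another fit, scaling, batch handling, probe set rule and fold threshold, and leaving out each array.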

Additional observations from a re-analysis of the deposited data

How the results depend on the processing

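None of the members that passed the thresholds of the Methods changed sign under any alternative. The median of the members for BMP6h against control, 0.01, lay on either side of 0, from -0.04 in batch 2 alone to 0.03 without BMP6h replicate 2. The count of members past the adjusted test stayed at 0 in all 3 comparisons except with array weights. The weight was lowest for BMP6h replicate 2 (0.093). It was highest for BMP24h replicate 1 (5.76), against 0.38 and 0.72 for the other BMP24h arrays. Control replicates 1, 2 and 3 had 2.93, 1.84 and 0.25, and BMP6h replicates 1 and 3 had 2.76 and 1.86. In every condition the batch 1 array, replicate 1, thus had the highest weight, and the weighted results lean most on it. With these weights 2 members passed for BMP24h against control (Camk2g, limma adjusted p = 0.00148, and Prkg2, limma adjusted p = 0.00841). For BMP6h against control 1 passed (Map3k1, limma adjusted p = 0.0267), and 2 for BMP24h against BMP6h (Map3k1, limma adjusted p = 0.00385, and Camk2g, limma adjusted p = 0.0126). Counts by the thresholds of the Methods (3 for BMP24h against control, 1 for BMP6h against control and 5 for BMP24h against BMP6h) became 6, 4 and 8 with array weights, the cause of which was not tested. For BMP24h against control the 6 were Camk2g, Camk2n2, Camk4, Mapk9, Pkib and Prkg2, while Camk2d and Pkia no longer passed. A fold change minimum of 1.5 left 1 for BMP24h against control (Camk2g) and 1 for BMP24h against BMP6h (Map3k1). For BMP24h against BMP6h, the count was 3 with the two-way analysis without moderated variances, 1 with the 2 compared conditions alone and 0 in batch 2 alone, where fewer arrays enter the fit. For BMP6h against control, it was 2 without a batch term and 2 with an intensity trend (Map3k1 and Mapk8 in both). A replicate block gave 5 for BMP24h against control (adding Mapk8 and Prkg2) and 2 for BMP6h against control. The study drew the 3 conditions of an experiment from 1 dissection, but no label ties a number to a dissection. The numbers were therefore not used to pair arrays in the main fit. The deviations of same-numbered arrays correlated between -0.74 and 0.53, which cannot decide the pairing. Batch 1 is replicate 1 of each condition, and the batch difference was subtracted before deposit. That subtraction pulls the correlations among the replicate 1 arrays (-0.74, -0.21 and -0.50) below 0.

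Leaving out 1 array at a time gave 0 members past the adjusted test in every comparison. By the thresholds of the Methods, it gave 1 to 6 for BMP24h against control (1 without control replicate 2 or BMP24h replicate 2, 6 without BMP6h replicate 2). It gave 1 to 4 for BMP6h against control (4 without BMP6h replicate 3, 2 without control replicate 1 or BMP6h replicate 1). For BMP24h against BMP6h it gave 2 to 6 (2 without replicate 1 or 2 of control or of BMP24h, or without BMP6h replicate 1, 3 without control replicate 3, 6 without BMP6h replicate 3). The median fold change of the members ranged from -0.12 (without BMP24h replicate 3) to -0.016 (without control replicate 2) for BMP24h against control, from -0.03 to 0.03 for BMP6h against control and from -0.11 (without BMP6h replicate 2) to -0.046 (without BMP6h replicate 1) for BMP24h against BMP6h. Over 20 alternatives, Camk2g stayed past the thresholds of the Methods for BMP24h against control in 20 (-0.80 to -0.51). Map3k1 did so in 19 for BMP6h against control (0.44 to 0.81) and in 19 for BMP24h against BMP6h, each time except in batch 2 alone. Camk2d passed in 14 in each of its comparisons, and Pkia, Mapk14, Prkg2 and, for BMP24h against BMP6h, Camk2g in 9 each.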

Other observations

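One further probe set, L27128_at, names both Mapk8 and Mapk10, which encode JNK1 and JNK3, and was left out because it belongs to no single gene. It read 8.44, 8.18 and 9.05 in BMP24h, 8.41, 7.83 and 8.43 in BMP6h and 8.29, 8.29 and 8.48 in control cultures. The conditions overlapped, with log2 fold changes of 0.21 for BMP24h and -0.13 for BMP6h against control, where the single-gene Mapk8 probe set had -0.79 and -0.86.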
